A study of Mus musculus with 6 samples.

Results

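NF-kB regulators and inflammatory cytokines were examined through 10 genes, Nfkbia, Nfkb1, Nfkb2, Relb, Tnfaip3, Birc3, Il1b, Tnf, Il6 and Ptgs2. They were taken by symbol from a table of 34745 genes, and each symbol stood on 1 row. RNA came from LSECs, that is, sinusoidal endothelial cells of the liver, whose fenestrated walls line its blood spaces. One group was Tgfbr2f/f (f/f, called WT in the sample titles), mice whose Tgfbr2 gene carries floxed alleles. The other was labelled Tgfbr2 ECKO (ECKO), an endothelial knockout of Tgfbr2, with the f/f mice described as its littermates. Mice of either genotype were given the fibrosis-inducing liver toxin CCl4 (carbon tetrachloride) intraperitoneally, 2 times a week over 6 weeks. No library came from mice without CCl4. Each genotype had 3 libraries, numbered 1 to 3. No source used here gives the Cre driver, age, sex or cell isolation method, or says whether each library came from a separate mouse. The p-values therefore measure the spread between these samples, which may be technical.

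NF-kB is a family of dimeric transcription factors held in the cytoplasm by inhibitor proteins. Signals from the tumour necrosis factor receptor, the interleukin-1 receptor or Toll-like receptors activate a kinase complex, IKK, that marks the inhibitor IkBa for destruction and frees the dimers. Freed dimers switch on cytokine genes and also the genes of their own inhibitors, which ends the response. A slower branch processes the p100 protein made from Nfkb2 and works through RelB. In the liver, endothelial cells, macrophages and stellate cells all carry this pathway.

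Among these genes are ones well known to be switched on by NF-kB itself, so the promoters that carry a match to the NF-kB decamer consensus (the kappa-B motif, 10 bases, both strands searched) are shown first. Of the 10 genes, 8 had a promoter window in RefSeq (GRCm38.p6), from 250 bases before to 50 bases after the start. Nfkb1 and Relb had none. A match was found in at least 1 window of 4 of the 8 genes, against 9.55% of the 27025 genes in that table. Per window, 8.46% of 32851 held a match. The sequences below are the 150 bases just before the start, 5′ to 3′ on the gene's strand, with the matches in capitals and positions counted back from the base before the start as -1. They lie at chr12:55492648-55492797 (Nfkbia, minus strand), chr10:19015411-19015560 (Tnfaip3, minus strand), chr19:46304587-46304736 (Nfkb2, plus strand) and chr5:30012964-30013113 (Il6, plus strand).
Nfkbia: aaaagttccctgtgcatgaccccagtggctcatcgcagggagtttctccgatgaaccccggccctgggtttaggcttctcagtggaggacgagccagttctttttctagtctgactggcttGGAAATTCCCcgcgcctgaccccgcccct
Tnfaip3: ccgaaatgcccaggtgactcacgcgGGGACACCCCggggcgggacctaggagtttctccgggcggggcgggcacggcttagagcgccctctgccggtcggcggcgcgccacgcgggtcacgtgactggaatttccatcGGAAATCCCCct
Nfkb2: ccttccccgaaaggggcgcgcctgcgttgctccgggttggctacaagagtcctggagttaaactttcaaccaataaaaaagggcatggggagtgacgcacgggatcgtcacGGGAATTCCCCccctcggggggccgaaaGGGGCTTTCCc
Il6: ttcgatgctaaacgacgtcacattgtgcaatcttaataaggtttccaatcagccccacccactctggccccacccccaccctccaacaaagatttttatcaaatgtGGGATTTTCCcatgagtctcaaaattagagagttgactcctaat
The match of Nfkbia began at position -29 and that of Il6 at -44. Tnfaip3 had a match at -125 and another at -12. In Nfkb2 (the first of its 3 windows) a match at -39 overlapped one at -38, and another began at -11. The windows of Birc3, Il1b, Tnf and Ptgs2 held none of these letters. A match describes the sequence only.

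Tgfbr2, the gene named in the ECKO label, was at 387, 442 and 452 CPM (counts scaled to library size) in f/f and at 498, 487 and 511 CPM in the libraries labelled ECKO (log2 fold change 0.22, edgeR quasi-likelihood adjusted p = 0.228). It was not lower in the ECKO libraries. No source used here says which part of the gene is deleted, so its count cannot check the label. Library totals ranged from 17171850 to 25062755 counts. Genes with a count above 0 numbered 17484 to 17699 in f/f and 16388 to 16564 in ECKO. Transcripts of the mitochondrial genome made up 11.5% to 23.5% of counts in f/f and 19.7% to 32.4% in ECKO (exact permutation p = 0.2, two-sided, n = 3 each, with 0.1 the smallest p this design allows). The 16 LSEC markers listed were all detected, with summed levels of 32011 to 37702 CPM in f/f and 35049 to 41553 CPM in ECKO. Of the 16, 2 had a negative log2 fold change, and the median was 0.22. For 7 every ECKO library lay above f/f (15.7% of all tested genes did so). In edgeR 1 was higher at an adjusted p under 0.05 (1.24% of all tested genes).

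None of the 9 members that could be tested passed an adjusted p of 0.05 in edgeR's quasi-likelihood test of ECKO against f/f, where 4.03% of 13692 genes passed, 2.79% lower and 1.24% higher in ECKO. Il6 was too low for the test's filter. At an unadjusted p under 0.05 the test held 3 members, Tnfaip3, Tnf and Ptgs2, all lower in ECKO, where 23.5% of all tested genes were at that level and 13.1% were there and lower. DESeq2 called 2 lower after adjustment, Tnfaip3 (adjusted p = 0.0140) and Ptgs2 (adjusted p = 0.0140), and 7.58% of all genes lower. Limma-voom called 0. Of the 9 members, 8 had a negative log2 fold change, where 6657 of all 13692 tested genes did. The median of the members was -0.58 against 0.01 over all tested genes. Without f/f replicate 1 the values of Nfkb2, Relb and Birc3 turned positive. The 3 libraries of each group did not overlap for Tnfaip3 and Ptgs2, both lower in ECKO, against 15.2% of all tested genes lower without overlap and 30.9% separated in either direction.

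**Figure D1:**
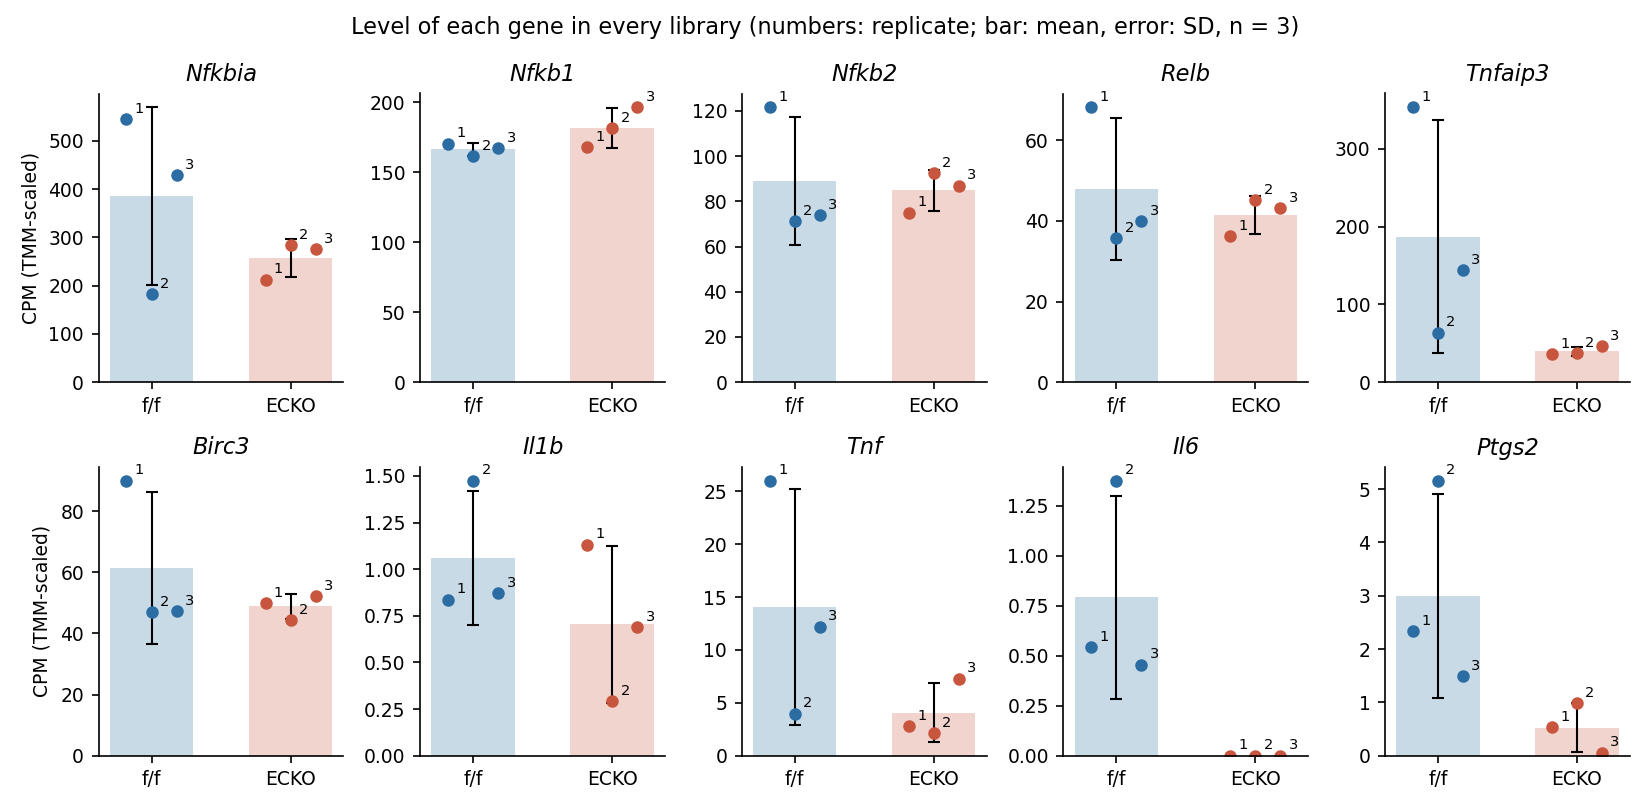
Level of each gene in CPM (vertical axes, linear from 0, a separate scale for each gene) in the 3 f/f and 3 ECKO libraries; points are libraries numbered by replicate, bars are means and error bars are SD. Replicate 1 is the highest f/f library for Nfkbia, Tnfaip3, Tnf, Birc3, Nfkb2 and Relb, and replicate 2 is the highest for Il1b, Il6 and Ptgs2.

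On the deposited scale that divides by gene length and library total (FPKM), Nfkbia was far above the other members. Its mean was 259 ± 109 FPKM in f/f and 152 ± 35.4 FPKM in ECKO (SD, n = 3 each). Nfkb2 followed at 28.0 ± 5.49 FPKM in f/f and 23.3 ± 4.51 in ECKO. In f/f the next were Tnfaip3 (13.8 ± 9.58 FPKM), Nfkb1 (11.1 ± 1.01), Birc3 (9.42 ± 2.63) and Relb (9.20 ± 2.27), neighbours whose ranges overlapped. In ECKO the order of these 4 was Nfkb1 (10.4 ± 1.53 FPKM), Relb (6.98 ± 1.39), Birc3 (6.53 ± 0.530) and Tnfaip3 (2.65 ± 0.499), with Tnfaip3 below each of the others in every ECKO library. Tnf stood lower, at 4.77 ± 3.32 FPKM in f/f and 1.23 ± 0.865 in ECKO. Ptgs2, Il1b and Il6 averaged under 1 FPKM in both groups. No source used here says how the length of each gene was set, and the order of genes in FPKM depends on it. In CPM, which does not divide by length, Nfkb1 averaged 166 in f/f and 182 in ECKO, above Nfkb2 at 88.9 and 84.8.

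Of the members that encode DNA-binding subunits, Nfkb1 differed least between libraries. Nfkb1 (chromosome 3, 135584655 to 135691547 on mm10/GRCm38, minus strand) encodes p105, the precursor of the p50 subunit. It was at 170, 161 and 167 CPM in f/f replicates 1 to 3 and at 168, 181 and 196 CPM in ECKO. The groups overlapped, and the log2 fold change was 0.13 (SE 0.10, 95% interval -0.10 to 0.35, edgeR quasi-likelihood adjusted p = 0.456). That small difference turned to -0.11 when libraries were scaled by total count, a scaling that moves the median of all genes to -0.22. Gm43430 lies within Nfkb1 on the same strand and overlaps 3897 of its bases, so reads there could belong to either.

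Nfkb2, which encodes p100, the precursor of p52 in the slower branch, was at 122, 71.2 and 73.9 CPM in f/f and at 75.0, 92.5 and 86.9 CPM in ECKO. Relb, the partner of p52, was at 68.2, 35.7 and 40.0 CPM in f/f and at 36.2, 45.1 and 43.2 CPM in ECKO. In both genes f/f replicate 1 lay above all other libraries. For Nfkb2 the other f/f libraries lay below every ECKO library. For Relb f/f replicate 2 lay just below the ECKO libraries and replicate 3 among them. The log2 fold changes were -0.07 (95% interval -0.57 to 0.43, adjusted p = 0.868) for Nfkb2 and -0.21 (-0.78 to 0.36, adjusted p = 0.639) for Relb. Without f/f replicate 1 both changed sign, to 0.23 and 0.14. The annotated gene AC114539.1 covers 875 bases of Nfkb2 on the opposite strand, and without a stated strand setting its reads cannot be told from those of Nfkb2.

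Nfkbia encodes IkBa, the inhibitor that NF-kB resynthesises to end its own activity. Its level was 544, 183 and 428 CPM in f/f replicates 1, 2 and 3 and 213, 284 and 275 CPM in ECKO. Thus f/f held both the highest and the lowest library, and the ECKO libraries lay between them. The log2 fold change was -0.58 (SE 0.37, 95% interval -1.48 to 0.31, edgeR adjusted p = 0.387). It was -0.24 without f/f replicate 1 and -0.92 without f/f replicate 2 (adjusted p = 0.723 and 0.0503).

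Tnfaip3 (chromosome 10, 19000910 to 19015657, minus strand) encodes A20, a ubiquitin-editing enzyme that shuts off signals from the tumour necrosis factor and interleukin-1 receptors. It was at 354, 63.9 and 144 CPM in f/f and at 35.7, 37.7 and 46.7 CPM in ECKO. Every f/f library lay above every ECKO library, though f/f replicate 2 was nearer to ECKO than to f/f replicate 1. The log2 fold change was -2.23 (SE 0.58, 95% interval -3.62 to -0.83, edgeR adjusted p = 0.0878). Leaving out f/f replicate 1 reduced it to -1.37 (adjusted p = 0.0675). Leaving out f/f replicate 2 gave -2.64 with an adjusted p of 0.0361, the only such fit that passed (1.29% of genes were called lower there). A test of the deposited FPKM with limma on log2(FPKM + 0.1) also passed (adjusted p = 0.0433, with 3.84% of genes called lower), and with a pseudocount of 1 it did not (adjusted p = 0.0574).

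Birc3 encodes cIAP2, a ubiquitin ligase that acts at the tumour necrosis factor receptor and is itself an NF-kB target. It was at 89.99, 46.9 and 47.3 CPM in f/f and at 49.9, 44.4 and 52.3 CPM in ECKO. Apart from f/f replicate 1, the 5 libraries lay within 44.4 to 52.3 CPM. The log2 fold change of -0.33 (95% interval -0.94 to 0.28, edgeR adjusted p = 0.473) became 0.061 without f/f replicate 1.

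Tnf, the cytokine tumour necrosis factor, both activates NF-kB and is induced by it. It was at 26.0, 3.98 and 12.2 CPM in f/f (622, 81 and 295 counts) and at 2.80, 2.15 and 7.28 CPM in ECKO (42, 37 and 127 counts). The groups overlapped because ECKO replicate 3 exceeded f/f replicate 2. The log2 fold change was -1.78 (SE 0.74, 95% interval -3.56 to -0.00, edgeR adjusted p = 0.213), and -0.98 without f/f replicate 1 (adjusted p = 0.417).

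**Figure D2:**
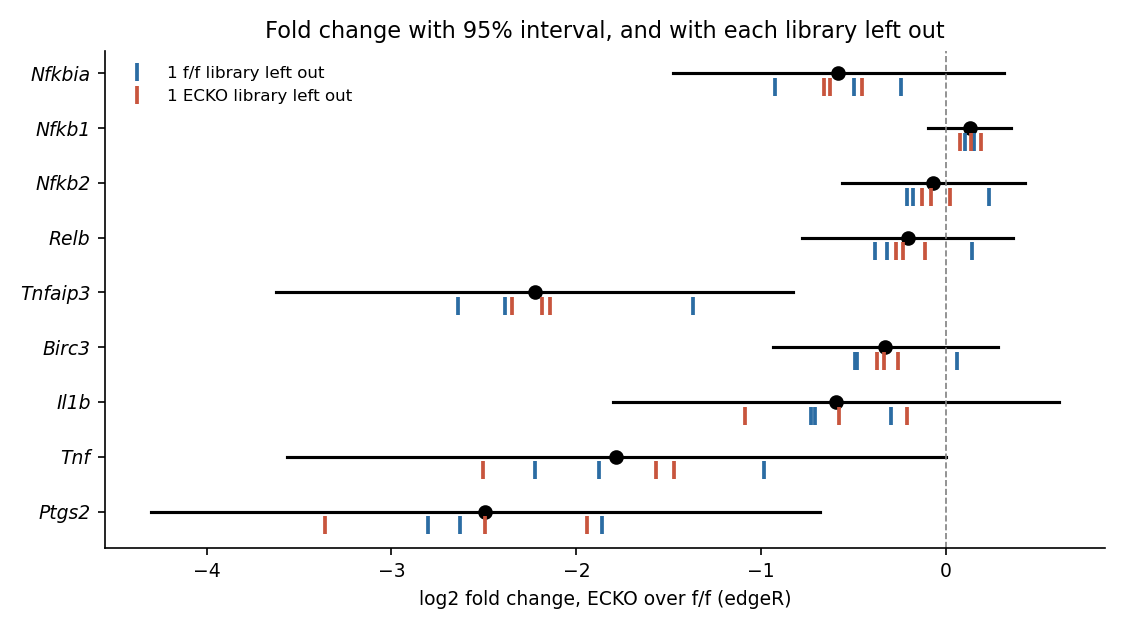
Log2 fold change of ECKO over f/f for the 9 tested members (horizontal axis; dots, with lines for the 95% interval from edgeR); short ticks below each dot are the same value with 1 library left out, blue for f/f and red for ECKO. Tnfaip3 lies at -2.23 with ticks from -2.64 to -1.37, while Nfkb2, Relb and Birc3 have ticks on both sides of 0.

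Il6, Ptgs2 and Il1b had their highest f/f level in replicate 2 and not in replicate 1. Il6 (chromosome 5, 30013114 to 30019981, plus strand) encodes interleukin-6, an inducer of the acute phase response. It had 13, 28 and 11 counts in f/f (0.544, 1.38 and 0.456 CPM) and 0 counts in each ECKO library. With 0 counts observed, up to 3 remain possible, equal to 0.172 to 0.200 CPM in a single ECKO library and 0.0604 CPM over the group. Against that group floor, the pooled f/f level of 0.760 CPM was at least 12.6-fold higher, a bound that takes the f/f counts as exact. With the counting error of both groups the lower 95% limit was 9.88-fold. Floor and limit cover counting error only. Each ECKO library also detected fewer genes than each f/f library. The share of genes at this level with 0 counts in every ECKO library was not counted. Leaving out single libraries gave bounds of 8.17 to 15.3. With no filter on low counts edgeR called Il6 lower in ECKO (adjusted p = 0.0212 over 20082 genes, 2.51% of them called lower), and on log2(FPKM + 0.1) limma did not (adjusted p = 0.0838).

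Ptgs2 (chromosome 1, 150100031 to 150108227, plus strand) encodes cyclooxygenase-2, the inducible enzyme of prostaglandin synthesis. It had 56, 105 and 36 counts in f/f (2.34, 5.16 and 1.49 CPM) and 8, 17 and 1 counts in ECKO (0.533, 0.988 and 0.0573 CPM). The lowest f/f library lay above the highest ECKO library, but the 95% Poisson intervals of those 2 libraries, 1.04 to 2.06 and 0.575 to 1.58 CPM, overlapped. The log2 fold change was -2.49 (SE 0.77, 95% interval -4.30 to -0.68, edgeR adjusted p = 0.115). With single libraries left out it ranged from -3.36 to -1.86 (adjusted p 0.118 to 0.236).

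Il1b encodes interleukin-1 beta, a cytokine made mainly by myeloid cells. Its counts were 20, 30 and 21 in f/f (0.836, 1.47 and 0.870 CPM) and 17, 5 and 12 in ECKO (1.13, 0.291 and 0.688 CPM). The groups overlapped, with a log2 fold change of -0.60 (95% interval -1.80 to 0.61, edgeR adjusted p = 0.520). Counting error alone gave a pooled f/f over ECKO ratio of 1.52 with a 95% interval of 0.994 to 2.35, so no difference was detectable at this depth. The antisense gene Il1bos covers 1243 bases of Il1b, and its reads cannot be told apart from those of Il1b here.

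Set against each other, the members other than Nfkb1 thus fell into a pair of groups by the library in which they were highest. Nfkb1 was highest in ECKO replicate 3. Nfkbia, Nfkb2, Relb, Tnfaip3, Birc3 and Tnf were highest of all 6 libraries in f/f replicate 1, which was the highest library for 19.3% of all tested genes. That library alone held 51.9% of the summed CPM of Tnfaip3 over the 6 libraries, 47.8% for Tnf and 28.2% for Nfkbia, where even levels would give 16.7%. Il6, Ptgs2 and Il1b were highest in f/f replicate 2 (17.5% of tested genes), which held 57.9%, 48.8% and 27.9% of their totals. The ratio of the highest to the lowest f/f library was 6.54 for Tnf, 5.54 for Tnfaip3 and 2.97 for Nfkbia. Over 13603 genes with counts in every library the median of that ratio was 1.27 in f/f, and 10% of genes lay above 2.30. In ECKO the same ratio was 1.31 for Tnfaip3 and 1.34 for Nfkbia, near that group's median of 1.302, and 3.39 for Tnf. Other members went the opposite way, with ratios of 17.2 in ECKO and 3.46 in f/f for Ptgs2, 3.90 and 1.76 for Il1b, and 1.17 and 1.06 for Nfkb1. The lowest ECKO library held 1 count of Ptgs2 and 5 of Il1b, so the ECKO ratios of these genes carry large counting error. Of all genes, 46.5% had the wider ratio in f/f.

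Ratios within a library do not depend on scaling between libraries. Their size does depend on the gene lengths behind the FPKM values, so only differences between libraries are read from them. In FPKM, Nfkbia was 32.9, 11.7 and 26.4 times Nfkb1 in f/f and 13.05, 16.1 and 14.4 times in ECKO. Tnfaip3 was 2.41, 0.460 and 1.00 times Nfkb1 in f/f and 0.247, 0.242 and 0.276 times in ECKO. Relative to Nfkb1, Tnfaip3 was thus lower in each ECKO library than in any f/f library, while Nfkbia in ECKO lay inside the f/f range.

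Genes that respond to handling and markers of other cell types also differed between libraries. The 25 immediate early and dissociation response genes listed, which rise within minutes of a stimulus, summed to 14000, 6176 and 14429 CPM in f/f and to 7393 to 9442 CPM in ECKO. Their lowest library was f/f replicate 2, as for Nfkbia, but their highest was f/f replicate 3 and not replicate 1. All 23 that were tested had negative log2 fold changes, where 6657 of all 13692 tested genes did. Of the 23, 2 fell, where 2.79% of all tested genes did. Egr2, an early growth response factor, was at 5.52, 3.68 and 3.89 CPM in f/f and at 0.865, 0.639 and 0.573 CPM in ECKO (log2 fold change -2.65, SE 0.32, edgeR adjusted p = 0.00963, or 0.0509 without ECKO replicate 1). Nr4a1, an orphan nuclear receptor, averaged 58.3 ± 6.53 CPM in f/f and 19.3 ± 8.27 CPM in ECKO (log2 fold change -1.59, SE 0.29, edgeR adjusted p = 0.0337). Nr4a1 passed without f/f replicate 1 or ECKO replicate 3 and missed without each other library. The part of handling in the members' values was not tested.

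Monocyte markers (12 listed) summed to 54.7, 140 and 108 CPM in f/f and to 46.9 to 57.4 CPM in ECKO, with f/f replicate 2 highest, as for Il6, Ptgs2 and Il1b. Lyz2, the macrophage and neutrophil lysozyme, was at 13.8, 65.7 and 37.5 CPM in f/f and at 11.5 to 14.5 CPM in ECKO. Of the 6 monocyte markers tested 0 passed in edgeR, 5 had a negative log2 fold change, and the median was -1.37. Neutrophil markers (12 listed) summed to 20.7, 27.1 and 15.7 CPM in f/f and to 1.34 to 6.59 CPM in ECKO. Their highest library was also f/f replicate 2. Of the 4 neutrophil markers tested in edgeR, 4 had a negative log2 fold change, with a median of -2.48, and 1 fell. Ly6g, a defining neutrophil marker, was at 0 in all 6 libraries. Kupffer cell and macrophage markers (13 listed) summed to 58.8 to 119 CPM in f/f and to 72.3 to 102 CPM in ECKO. Among these too f/f replicate 2 was highest. Clec4f, which defines Kupffer cells, was at 3.64 to 6.09 CPM in f/f and 7.09 to 14.6 CPM in ECKO. Of the 12 tested markers of that list 6 had a negative log2 fold change, and the median was 0.01. For 2 of them every ECKO library lay above f/f, and for 2 every ECKO library lay below, where 30.9% of all tested genes were separated in either direction. Stellate cell and fibroblast markers (14 listed) summed to 1735, 2921 and 3051 CPM in f/f and to 678 to 975 CPM in ECKO, with f/f replicate 3 highest, and 8 of the 14 fell. Cholangiocyte markers (7 listed) summed to 218, 614 and 349 CPM in f/f and to 141 to 192 CPM in ECKO, with f/f replicate 2 highest, and 0 of 7 passed in edgeR (6 at an unadjusted p under 0.05). B and plasma cell markers (10 listed) summed to 27.6 to 62.5 CPM in f/f and to 9.35 to 17.9 CPM in ECKO, and 4 of 9 tested fell. In edgeR 2.79% of all tested genes fell, and 23.5% were at an unadjusted p under 0.05. Macrophages, neutrophils and stellate cells can all make these cytokines, and the part of such cells in the members' values was not tested. Fewer cells of a type and less RNA per cell cannot be told apart in bulk samples.

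**Figure D3:**
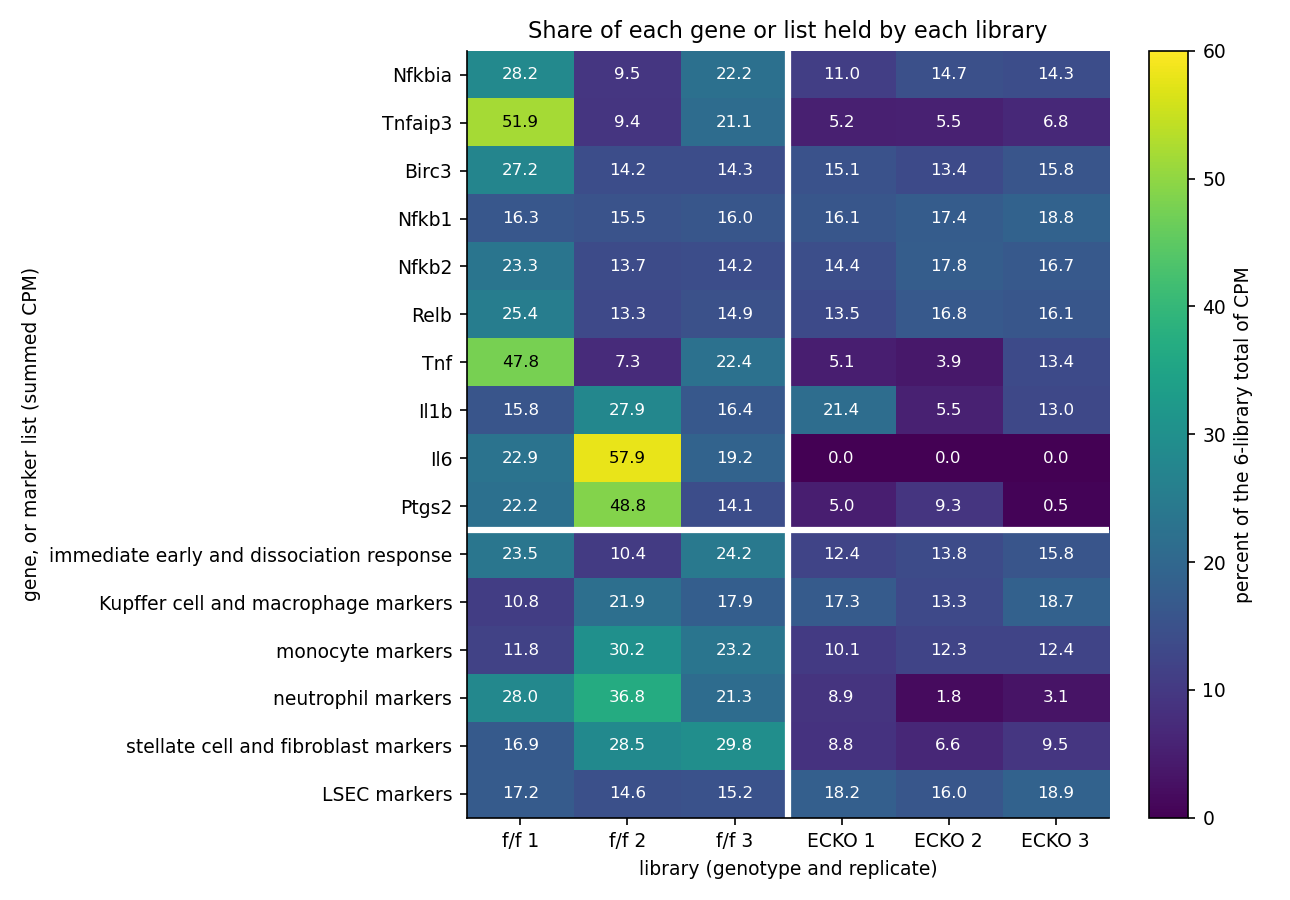
Percent of the 6-library total of CPM held by each library (columns) for each member (upper rows) and for the summed CPM of 6 gene lists (lower rows); each row adds to 100, and even levels would give 16.7. The brightest cells are Il6 (57.9) and Ptgs2 (48.8) in f/f replicate 2, and Tnfaip3 (51.9) and Tnf (47.8) in f/f replicate 1.

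Other genes of the pathway were taken by role from 8 lists, leaving out the members. Nfkbie, Nfkbiz, Bcl3, Traf1, Tnip1 and Zc3h12a stood among the induced target genes and also in another list. They are counted once in the totals here and again in each list below. Of 142 genes, 126 were tested. Of these 2 rose, 3 fell and 121 did not pass (edgeR adjusted p under 0.05), close to the 4.03% of all genes. At an unadjusted p under 0.05 there were 39, and the counts at that level given below for each list stand against 23.5% of all tested genes. Their median log2 fold change was -0.07.

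Among the other Rel and IkB proteins, 0 of 9 passed in edgeR (2 at an unadjusted p under 0.05, Nfkbid and Nfkbiz), with a median of -0.10. Nfkbid, an atypical nuclear IkB protein, had the smallest p, at 11.7, 3.98 and 10.9 CPM in f/f and 2.86, 4.59 and 4.42 CPM in ECKO (log2 fold change -1.16, edgeR adjusted p = 0.1496). DESeq2 called it (adjusted p = 0.0476), as did edgeR without f/f replicate 2 (adjusted p = 0.0374). Nfkbiz, another nuclear IkB protein chosen here after its values were seen, was at 353, 50.3 and 280 CPM in f/f and 56.1, 41.8 and 90.02 CPM in ECKO (adjusted p = 0.167). In both genes f/f replicate 2 sat among the ECKO libraries, whereas for Nfkbia it lay below them.

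Of 13 genes of the IKK complex and its activating kinases, 1 fell and 12 did not pass (3 at an unadjusted p under 0.05). Ikbke, a kinase related to IKK, fell from 4.31 ± 0.659 to 1.41 ± 0.359 CPM (n = 3 each; log2 fold change -1.62, SE 0.29, edgeR adjusted p = 0.0307). Of the fits that left out 1 library, the one lacking f/f replicate 1 kept the call (adjusted p = 0.0189) and the rest lost it (0.0704 to 0.115). On log2(FPKM + 0.1) limma gave an adjusted p of 0.0607. Of 22 tested ubiquitin adaptors and editors 0 passed in edgeR (1 at an unadjusted p under 0.05), with a median of 0.03. That gene was Rbck1, a subunit of the linear ubiquitin ligase, at 86.8 ± 11.9 CPM in f/f and 107 ± 7.01 CPM in ECKO (log2 fold change 0.31, edgeR adjusted p = 0.178, and 0.088 on the log2 scale under total count scaling).

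Receptors and their proximal adaptors did not pass in edgeR for any of 24 tested genes (6 at an unadjusted p under 0.05, a share near that of all genes), with a median of 0.07. Irak4, the kinase at the start of interleukin-1 and Toll-like receptor signalling, was at 25.6, 25.9 and 27.1 CPM in f/f and 35.2, 31.2 and 34.0 CPM in ECKO (log2 fold change 0.35, edgeR adjusted p = 0.0912). Under total count scaling its log2 fold change was 0.11. Of 7 tested inflammasome and interleukin-1 family genes 0 passed in edgeR (3 at an unadjusted p under 0.05). Casp1, the protease that matures interleukin-1 beta, was at 43.7 ± 1.03 CPM in f/f and 52.7 ± 2.08 CPM in ECKO (log2 fold change 0.27, edgeR adjusted p = 0.124, and 0.035 on the log2 scale under total count scaling). Il1a, the sister cytokine of Il1b and also chosen after its values were seen, was much more abundant per length, at 154 ± 28.2 FPKM in f/f and 81.2 ± 17.3 FPKM in ECKO, where Il1b was at 0.497 ± 0.201 and 0.266 ± 0.139 FPKM. In CPM Il1a was at 378, 216 and 258 in f/f and at 166, 143 and 214 in ECKO (log2 fold change -0.71, SE 0.23, edgeR adjusted p = 0.130), groups that did not overlap by a narrow margin.

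The receptor side of interleukin-6 signalling held the gene of these lists with the smallest p for a rise. Osmr, the oncostatin M receptor that pairs with the shared subunit gp130, rose from 128 ± 5.75 to 287 ± 56.3 CPM (n = 3 each; log2 fold change 1.16, SE 0.15, edgeR adjusted p = 0.0128). Every ECKO library (301, 225 and 335 CPM) was above every f/f library (132, 121 and 130 CPM). It missed the threshold without f/f replicate 3 (adjusted p = 0.0621) and without ECKO replicate 1 (0.0627). The other 9 genes of that list did not pass, and its median was 0.09. Of its 10 genes, 3 were at an unadjusted p under 0.05 in edgeR.

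In the prostaglandin pathway 0 of 14 tested genes passed in edgeR (8 at an unadjusted p under 0.05), with a median of -0.53. Ptgis, prostacyclin synthase, which acts after cyclooxygenase, was at 10.2, 22.7 and 18.7 CPM in f/f and 1.73, 6.57 and 2.35 CPM in ECKO (log2 fold change -2.26, SE 0.53, adjusted p = 0.0671). DESeq2 called it lower (adjusted p = 9.01e-05), and edgeR did so without f/f replicate 1 (0.0393) and without ECKO replicate 2 (0.0363). Limma called it on log2(FPKM + 0.1) (0.0355) and on log2(FPKM + 1) (0.0382).

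Of 33 tested genes that NF-kB is known to induce, 2 fell, 1 rose and 30 did not pass, with a median of -0.89. In edgeR 14 of the 33 were at an unadjusted p under 0.05. Of the 33 values 27 were negative, where 6657 of all 13692 tested genes were. Saa3, an acute phase serum amyloid, fell from 35.4 ± 18.7 to 1.45 ± 0.335 CPM (n = 3 each; log2 fold change -4.59, SE 0.45, edgeR adjusted p = 0.00938, or 0.0509 without ECKO replicate 1). Its f/f libraries held 20.4, 56.4 and 29.3 CPM, with replicate 2 highest, as for Il6 and Ptgs2. Nos2, the inducible nitric oxide synthase, averaged 1.496 ± 0.165 CPM in f/f and 0.356 ± 0.162 CPM in ECKO, a log2 fold change of -2.04 (SE 0.42, edgeR adjusted p = 0.0414). Leaving out f/f replicate 1 kept that call (0.0490), and leaving out any other library lost it (0.0702 to 0.152). Selp, which encodes P-selectin, was at 53.0 ± 11.3 CPM in f/f and 107 ± 18.1 CPM in ECKO and rose (log2 fold change 1.01, SE 0.18, edgeR adjusted p = 0.0314). It missed the threshold under total count scaling (0.0883), on log2(FPKM + 0.1) (0.122) and in 4 of the 6 fits with 1 library left out (0.0609 to 0.0975). Marker values of other cell types are given above, and the part of such cells in the falls of Saa3 and Nos2 was not tested.

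**Figure D4:**
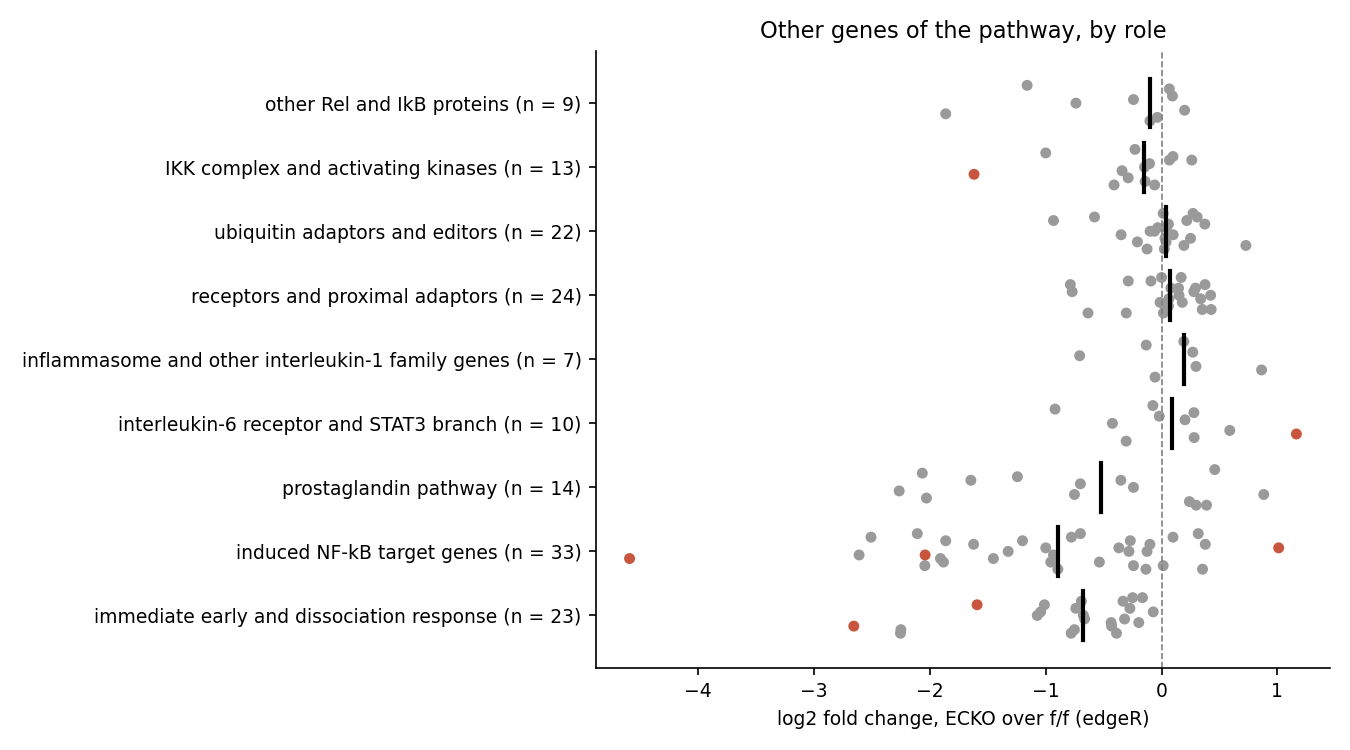
Log2 fold change of ECKO over f/f (horizontal axis) for each tested gene of the pathway lists and of the immediate early list (rows, with the number tested); red points passed an adjusted p of 0.05, grey points did not, black bars are medians, and points are spread vertically for legibility. Medians lie near 0 for receptors (0.07) and ubiquitin editors (0.03), and at -0.89 for induced target genes.

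Genes whose level across the 6 libraries was most like that of Nfkbia, by Pearson correlation of log2 CPM over 9847 genes, were Ier5 (0.995), Sox7 (0.979), Ptp4a3 (0.978), Irf1 (0.978) and Eps15l1 (0.977). Ier5, an immediate early gene, was at 194, 104 and 160 CPM in f/f and 115, 133 and 132 CPM in ECKO, the same order of libraries in f/f as Nfkbia. Irf1, a transcription factor of the interferon response, was at 279, 72.7 and 213 CPM in f/f and 84.5, 93.8 and 113 CPM in ECKO. For Il1b they were Pura (0.990), Snx20 (0.986), Zkscan17 (0.979), Cops3 (0.975) and Clcn3 (0.965). With 6 libraries these are descriptions, and the values share each library's depth and scaling.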

How the data were processed

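RNA sequencing of LSECs gave 6 libraries, 3 per genotype. Per the submitters' processing notes, HISAT2 2.0.4 and StringTie 1.3.0 were used, with builds mm10 and GRCm38.p4 named. How reads were counted, on which annotation and with which strand setting, no source used here says. Per the file headers, the authors deposited raw counts per gene and FPKM values; 0 columns were left out. A count of 0 allows up to 3 counts.

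The count model was edgeR 4.0.16 in R 4.3.3: filterByExpr (minimum count 10, minimum total 15), TMM scaling, robust quasi-likelihood F-test, two-sided, genotype as the only term, Benjamini-Hochberg adjustment over 13692 genes. Standard errors come from the fold change and the F statistic (its size over root F), and 95% intervals use the test's degrees of freedom. CPM values are TMM-scaled. On simulated data the test returned the fold changes put in. Its share of false calls stayed under the nominal level where dispersions followed the mean trend, but exceeded it where they varied gene by gene, so single calls near the threshold are less certain than their adjusted p says. A fit with no robust estimation was therefore added after seeing the data.

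Named were all 10 members and, per list, up to 3 passing genes with the smallest p, or otherwise the 1 with the smallest p. For Nfkbia and Il1b the 5 most alike genes of at least 5 CPM were ranked (prior count 2). Members and lists were chosen with earlier results of these data known. Alternatives used DESeq2 1.42.0, limma 3.58.1, other scalings and filters, FPKM (pseudocounts 0.1 and 1), a replicate block and leaving out libraries. RefSeq supplied promoters and GENCODE M21 the overlapping genes, both on GRCm38.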

Additional observations from a re-analysis of the deposited data

How the results depend on the processing

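The count of members called, 0, became 1 with no filter on low counts (Il6), 2 in DESeq2, 1 on log2(FPKM + 0.1) and 1 with the replicate block (Ptgs2, adjusted p = 0.0467), and 0 to 1 with single libraries left out. Over all genes the 552 calls (170 higher, 382 lower) became 1272 under total count scaling (63 higher, 1209 lower), 324 with a mean of at least 5 CPM, 1508 in DESeq2, 315 in limma-voom, 242 on unfiltered FPKM and 35 to 1012 with single libraries left out (35 without ECKO replicate 1, 1012 without f/f replicate 1). On log2(FPKM + 0.1) the 612 calls were 47 higher and 565 lower, on log2(FPKM + 1) 38 and 432, and on unfiltered FPKM 25 and 217. The 5 pathway calls became 13 with total count scaling, 3 at a mean of at least 5 CPM, 21 in DESeq2, 10 on log2(FPKM + 0.1), 2 on unfiltered FPKM and 0 to 12 with single libraries left out. The log2 fold change of Nfkb1 turned negative with total count scaling (-0.11) and in the FPKM fits (-0.11, -0.10 and -0.11). Leaving out single libraries gave -0.21 to 0.23 for Nfkb2, -0.39 to 0.14 for Relb and -0.50 to 0.061 for Birc3, each positive without f/f replicate 1, and Nfkb2 also without ECKO replicate 1 (0.019). The cause was not tested. Without robust estimation, an alternative chosen after seeing the data, edgeR called 0 members, 5 pathway genes and 524 genes in all. Same-numbered libraries deviated together with correlations of 0.09, 0.15 and -0.05, so the numbers were not taken as pairs. The replicate block gave 416 calls over all genes and 5 in the pathway, and called Ptgis (adjusted p = 0.0189). Low counts limit Il6, Il1b and Ptgs2.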
